A study of Mus musculus with 6 samples.

Results

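The replication-dependent histone genes of the mouse encode the histones that package newly made DNA. They were taken here as the protein-coding rows of the deposited count table whose mouse gene symbol begins with Hist1h, Hist2h, Hist3h or Hist4h, which gave 67 of the 54232 rows. The 67 genes comprised 6 of the linker histone H1, 18 of H2A, 18 of H2B, 12 of H3 and 13 of H4. Smooth muscle cells of the oviduct, cultured from mice aged 8 to 12 weeks on day 2 of pregnancy (D2), were profiled by RNA-seq in 3 WT and 3 Pbrm1 cKO libraries, to ask which genes change when Pbrm1, which belongs to a SWI/SNF complex that remodels chromatin, is deleted. In the study's methods the deletion was made by crossing floxed Pbrm1 mice with PR-IRES-cre mice, so that Cre is driven from the progesterone receptor locus in every cell that expresses it. The labels name the controls WT, whereas a legend in the study's supplement names floxed mice, and that legend calls the 3 replicates biological, but no source says if each library stands for 1 animal or a pool. Both groups of cells were released by enzyme digestion of the oviduct, filtered, and kept for some hours in serum before RNA was prepared, so the cells were plated and not sorted.

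Replication-dependent histone genes lie in a few clusters, have no introns in their usual form, and are transcribed mainly while DNA is being copied, under NPAT and its cyclin E–CDK2 partner. Their mRNAs are not polyadenylated. They end just after a conserved stem-loop that is bound by SLBP, and the mRNAs are degraded, with help from UPF1, when replication stops. H2A, H2B, H3 and H4 form the nucleosome core, whereas H1 binds the linker DNA between nucleosomes. The labels of these libraries describe total RNA primed with random as well as poly(T) primers, which can copy mRNAs without a poly(A) tail, whereas the study's methods describe bead purification of mRNA for its uterine stromal cell libraries. Were such a step used here too, the members' counts would come mainly from polyadenylated forms. Rn7sk, an RNA without a poly(A) tail, had 75733 to 133147 counts a library. Which preparation was used was not tested.

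The stem-loop is the sequence feature that sets these mRNAs apart, and representative copies are shown because they mark which annotated models carry the histone 3′ end. The 16 letters searched were GGC, any base, CTTTT, any base, AG, any base and GCC, on the transcribed strand of the annotated 3′ UTRs (GENCODE M21, GRCm38). They were found in 42 of the 52 members with an annotated 3′ UTR of at least 16 bases (80.8%), against 44 of 21131 genes with one (0.208%), and the other 2 genes were H2afx and H2bfm, which also encode histones. The 16 bases of the stem-loop are in capitals below, with the neighbouring transcript bases in lower case and T for U.
Hist1h1e (H1, chr13:23621782-23621797, minus strand): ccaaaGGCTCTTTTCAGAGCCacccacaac
Hist2h2ac (H2A, chr3:96220418-96220433, minus strand): aaaaaGGCTCTTTTTAGAGCCaccaaatct
Hist1h2bm (H2B, chr13:21722506-21722521, plus strand): acaaaGGCTCTTTTCAGAGCCactaagcag
Hist1h3f (H3, chr13:23544932-23544947, plus strand): aaaacGGCTCTTTTAAGAGCCacctccatt
Hist1h4d (H4, chr13:23581950-23581965, plus strand): ccaaaGGCCCTTTTCAGGGCCactaccttc
Hist4h4 (H4, chr6:136803998-136804013, minus strand): acaaaGGCCCTTTTCAGGGCCcacaaagca
The stem of all 9 H4 genes with a match differed from that of the other classes. H4 genes carried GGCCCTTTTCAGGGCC (7 members) or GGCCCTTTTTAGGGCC (2 members), whereas the H1, H2A, H2B and H3 genes carried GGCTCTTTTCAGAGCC (26 members), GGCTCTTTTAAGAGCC (6 members) or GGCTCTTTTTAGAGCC (1 member). The first base of the stem-loop lay 22 to 59 bases after the stop codon, with a median of 32. In 21 of the 42 members the annotated model ran more than 100 bases past the stem-loop. In the other 15 members the annotated 3′ UTR was absent (13 members) or shorter than the stem-loop (Hist1h2af and Hist1h2ah), so none could be sought there.

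Promoters of the members were compared with those of all genes because the members moved largely together. Of the 67 members, 61 had a RefSeq promoter window (GRCm38.p6, 250 bases before to 50 after the start). On either strand, CCAAT was present in 85.2% of these windows against 37.9% of 27025 promoters, and the TATA-box letters TATAAA in 57.4% against 14.2%. CCAAT was found in 100% of the H1, H2A, H2B and H3 windows and in 3 of the 12 H4 windows. The octamer ATTTGCAT, which OCT1 recognizes, was found in 41.2% of H2A and 37.5% of H2B windows against 1.75% of all promoters, and in no H1, H3 or H4 window. The E2F-like letters TTTCGCGC were found in 29.4% of the H2A windows and 4 of the 16 H2B windows against 0.318% of all. AAACACA, a box known from H1 promoters, was found in 83.3% of the H1 windows against 7.14% of all. Because H2A and H2B genes often lie head to head, 1 window can hold the start of both genes and the windows are not independent. Promoters from 3 classes are shown over the 120 bases before the RefSeq start, with these motifs in capitals on either strand.
Hist1h1b (chr13:21780626-21780745, minus strand): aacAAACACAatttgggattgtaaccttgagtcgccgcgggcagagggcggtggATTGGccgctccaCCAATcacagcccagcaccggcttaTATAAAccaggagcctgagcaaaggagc
Hist1h2bm (chr13:21721924-21722043, plus strand): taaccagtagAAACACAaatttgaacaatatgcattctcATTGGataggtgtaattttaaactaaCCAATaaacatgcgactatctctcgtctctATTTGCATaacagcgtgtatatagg
Hist1h4n (chr13:21832198-21832317, minus strand): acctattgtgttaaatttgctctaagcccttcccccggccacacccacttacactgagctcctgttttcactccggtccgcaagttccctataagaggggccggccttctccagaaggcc
The Hist1h1b stretch held CCAAT on both strands, TATAAA and the H1 box, the Hist1h2bm stretch held CCAAT, the H1 box and the octamer, and the Hist1h4n stretch held none of the motifs. The whole Hist1h4n window was nevertheless counted above as holding TATAAA, which lies outside the bases shown. A match to these letters is a description of the sequence and not evidence of binding.

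The libraries held 15390818 to 18947947 counts, of which 0.113% to 0.208% fell on the members. Pbrm1 was at 170 to 183 CPM (counts relative to library size, scaled by TMM) in WT and 42.7 to 50.6 CPM in cKO (log2 fold change −1.94, edgeR quasi-likelihood test, adjusted p = 9.13e-11), in keeping with the labels. The smooth muscle markers Acta2 and Tagln were abundant in both groups. Summed CPM over 6 such markers was 3270 to 3350 in WT and 4070 to 4550 in cKO (5 of 6 rose and none fell). Markers of other cells also moved. Summed leukocyte markers were at 759 to 809 CPM in WT and 1110 to 1210 CPM in cKO (10 of 12 rose, none fell, and Cd3e was near 0), summed fibroblast markers at 4950 to 5530 and 7360 to 7670 CPM (8 of 12 rose and 2 fell), and summed epithelial markers at 1010 to 1100 and 1270 to 1410 CPM (8 of 12 rose and 1 fell). Summed endothelial markers were at 570 to 621 CPM in WT and 497 to 531 CPM in cKO, with 4 of 12 higher and 2 lower. The 2 lower were Kdr (mean 181 CPM in WT and 99.3 CPM in cKO) and Eng (191 and 154 CPM). Of all genes tested, 21.9% rose and 21.8% fell, and the endothelial calls were near the 43.7% called in either direction. The part of the marker shifts in the histone results was not tested. In such bulk libraries fewer dividing cells and less histone mRNA per dividing cell cannot be told apart.

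One library stood apart for the histone genes. WT replicate 1 was the highest of all 6 libraries for 53 of the 58 members that passed the filter on low counts, and the median member was 1.34 times the mean of WT replicates 2 and 3. The excess was larger in the core histones, with medians of 1.47 for H2A, 1.30 for H2B, 1.28 for H3 and 1.38 for H4, than in H1 (1.16). Across the 58 members the ratio was also larger where less of the sequence was unique to a gene (Spearman's rho −0.487). H1 genes were the most unique class, so class and uniqueness cannot be told apart here. The excess was not seen in 42 genes of DNA replication and S phase, for which the median ratio was 1.01, nor over all 15376 tested genes (0.996). Among RNAs without a poly(A) tail, picked after their values were seen, this ratio was 1.35 for Rpph1, 1.04 for Rn7sk and 0.924 for Rn7s2. Counts and medians of the members are therefore also given without WT replicate 1.

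Histone mRNAs were lower in Pbrm1 cKO cells in all 5 classes. Of the 58 members tested, 49 fell, 1 rose and 8 did not pass the test at an adjusted p of 0.05. Of all 15376 genes tested, 21.8% fell and 21.9% rose, and 43.7% passed in either direction. The median log2 fold change of the tested members was −0.63, against 0.00 over all tested genes, and 56 of 58 members had a negative value. In 46 of the 58 members every cKO library was below every WT library, an order that 26.9% of all tested genes showed. At an adjusted p under 0.01 the members called were 41 (30.3% of all genes tested), and at an adjusted p under 0.05 with an absolute log2 fold change over 1 they were 7 (6.49%). DESeq2 called 46 of the 60 members it tested (31.6% of all genes). Without WT replicate 1 the counts were 39 lower and 1 higher of 58, with a median of −0.45, where 17.9% of all tested genes were lower. The 10 calls lost were Hist1h2ad, Hist1h2ae, Hist1h2ah, Hist1h2bl, Hist1h2bq, Hist1h3f, Hist1h3h, Hist1h4a, Hist1h4c and Hist1h4h. The calls that remained included all 5 H1 genes and the 8 largest falls. Without cKO replicate 1, 42 members were lower and 1 higher of 59 (17.5% of all tested genes were lower), and the calls of Hist1h2ad, Hist1h2ah, Hist1h2bl, Hist1h2bq, Hist1h3h, Hist1h4c and Hist1h4h were lost.

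The sum over all 67 members was 2100, 1650 and 1750 CPM in WT replicates 1 to 3 and 1120, 1300 and 1250 CPM in cKO replicates 1 to 3. Every cKO library thus lay below every WT library, and the cKO mean was 66.9% of the WT mean, or 72.0% without WT replicate 1. By class, the cKO mean was 67.2% of WT for H1, 60.6% for H2A, 68.9% for H2B, 65.5% for H3 and 67.2% for H4. These shares lay close together, and differences between the classes were not tested. Without WT replicate 1 they were 70.3%, 70.4%, 73.0%, 71.6% and 76.0%. The tested members called lower without it were 5 of 5 for H1 (median log2 fold change −0.39), 6 of 14 for H2A (−0.46), 10 of 16 for H2B (−0.41), 9 of 11 for H3 (−0.56) and 9 of 12 for H4 (−0.43). Over all genes tested, 17.9% were then lower.

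**Figure D1:**
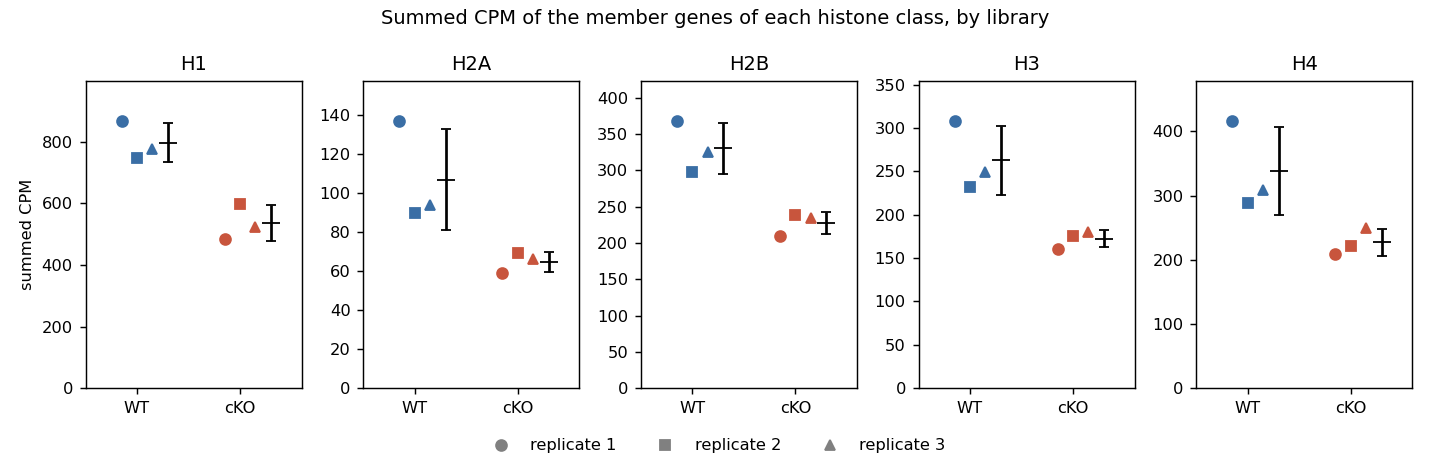
Summed CPM (vertical axis, from 0) of the member genes of each class in the 3 WT and 3 cKO libraries, with markers for replicates 1 to 3 and the mean ± SD beside them. All 3 cKO libraries lie below all 3 WT libraries in each panel, and WT replicate 1 is the highest library in each.

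The linker histones were the class with the most reads, at 43.6% of the members' counts, and 5 of 6 H1 genes were tested. All 5 fell, but by unequal amounts. Hist1h1d, encoding the H1.3 subtype (chr13:23553262-23560686), was at 150, 121 and 128 CPM in WT and at 60.6, 77.3 and 61.2 CPM in cKO. No libraries overlapped, and the gene fell by 1.00 ± 0.09 on the log2 scale (SE, edgeR adjusted p = 1.56e-06). Hist1h1b, encoding H1.5 (chr13:21779883-21780625), was at 158, 149 and 155 CPM in WT and at 73.6, 95.6 and 74.5 CPM in cKO. Its 3 WT libraries were close together, WT replicate 1 included, and the log2 fold change was −0.92 ± 0.08 (adjusted p = 9.72e-07).

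The remaining H1 genes fell less. Hist1h1c, encoding H1.2 (chr13:23738808-23740367), was at 176, 142 and 147 CPM in WT and 98.4, 120 and 113 CPM in cKO (log2 fold change −0.49 ± 0.08, adjusted p = 3.26e-04). Hist1h1e, encoding H1.4 (chr13:23620629-23622558), was at 232, 196 and 203 CPM in WT and 145, 181 and 164 CPM in cKO (−0.37 ± 0.08, adjusted p = 1.56e-03). Hist1h1a, encoding H1.1 (chr13:23763666-23764406), was at 150, 137 and 144 CPM in WT and 106, 125 and 112 CPM in cKO (−0.33 ± 0.06, adjusted p = 5.68e-04). In all 3 genes the groups did not overlap, although cKO replicate 2 came close to the WT range. Part of the Hist1h1e model overlaps Hist1h2be and Gm11398 on the same strand, where reads assigned to more than 1 gene were not counted.

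Because H1 genes are distinct in sequence, they could be set against each other within a library. Counts of Hist1h1b over Hist1h1a were 1.06, 1.08 and 1.08 in WT and 0.694, 0.765 and 0.667 in cKO. The ratio of Hist1h1d over Hist1h1e was 0.644, 0.618 and 0.633 in WT and 0.418, 0.428 and 0.374 in cKO, and that of Hist1h1d over Hist1h1c was 0.850, 0.855 and 0.876 in WT and 0.616, 0.643 and 0.543 in cKO. These 3 pairs were chosen after the fold changes were seen. No ratio overlapped between groups, and the ratios of WT replicate 1 were close to those of the other WT libraries. A two-sided exact permutation test gave p = 0.1 for each, the smallest value that 3 against 3 libraries allow, so the design could not reach 0.05. Per length of annotated exon, Hist1h1b was at 207 CPM per kb in WT and 109 in cKO, and Hist1h1a at 194 in WT and 154 in cKO, so the order of the pair was reversed between the genotypes. Hist1h1d was at 17.9 CPM per kb in WT, but its annotated model is 7425 bases long and runs far past the stem-loop.

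**Figure D2:**
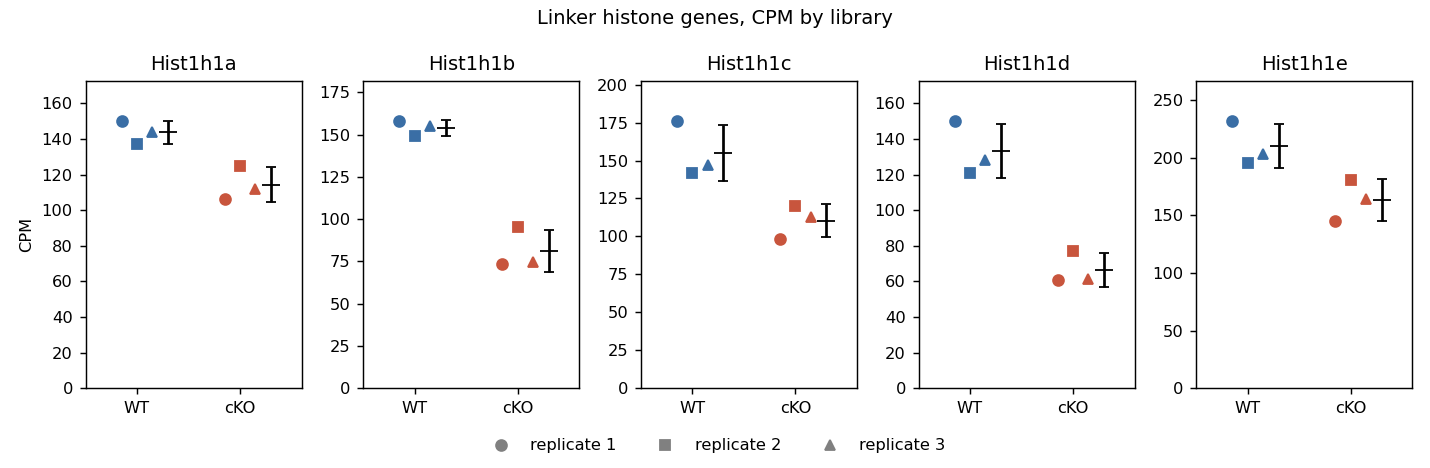
CPM (vertical axis, from 0) of the 5 tested H1 genes in the 3 WT and 3 cKO libraries, with the mean ± SD beside the points. Hist1h1b and Hist1h1d lie far below WT in all 3 cKO libraries, and cKO replicate 2 is the highest cKO library for each gene.

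The sixth H1 gene, Hist1h1t, encodes the testis H1. It had 9, 6 and 7 counts in WT and 3, 6 and 1 in cKO and was too low to be tested.

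Among the H2A genes, 9 of 14 tested members fell and none rose, with a median log2 fold change of −0.70. The most abundant was Hist2h2ac (chr3:96220361-96220880), at 26.9, 17.4 and 19.8 CPM in WT and 11.7, 14.4 and 14.3 CPM in cKO. The groups did not overlap (log2 fold change −0.67 ± 0.14, adjusted p = 1.72e-03), and the value was −0.47 without WT replicate 1. The largest falls were in Hist1h2ak and Hist1h2an, which lie close together on chromosome 13. Hist1h2ak (chr13:21753435-21753827) was at 23.4, 13.7 and 14.9 CPM in WT and 5.90, 9.32 and 8.61 CPM in cKO (−1.12 ± 0.20, adjusted p = 4.52e-04). Hist1h2an (chr13:21786826-21787218) was at 5.37, 2.83 and 3.51 CPM in WT and 1.35, 2.07 and 1.99 CPM in cKO (−1.11 ± 0.26, adjusted p = 3.17e-03). Both were highest in WT replicate 1, without which they were at −0.85 and −0.81 and still passed the test.

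The 5 H2A members that did not pass were Hist1h2ap (−0.75), Hist1h2af (−0.52), Hist1h2ai (−0.41, adjusted p = 0.0543), Hist2h2ab (−0.10) and Hist3h2a (−0.07). They had 5 to 172 counts a library, and their groups overlapped. Low counts did not set all of them apart, since Hist1h2ai had 83 to 172 counts and the called Hist1h2an 24 to 91. Hist3h2a, outside the main clusters on chromosome 11, was at 2.30, 1.82 and 1.46 CPM in WT and 1.68, 1.64 and 1.99 CPM in cKO. Of its sequence windows 97.9% were unique, and with an SE of 0.23 a small change was not detectable at this depth. Not tested were Hist1h2aa, which encodes the testis H2A and had 1 count in WT replicate 3 and none elsewhere, Hist1h2ao (0 or 1 count a library), Hist2h2aa2 (3 to 14 counts) and Hist2h2aa1, at 0 in every library. For Hist2h2aa1 a count of 0 allows up to 0.159 to 0.193 CPM, depending on the library. It shares 96.3% of its sequence windows with Gm20632 and overlaps Gm20634 on its strand, and shared reads were not counted.

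Among the H2B genes, 12 of 16 tested members fell, 1 rose and 3 did not pass, with a median of −0.55. Hist2h2bb (chr3:96269752-96270132), the most abundant, was at 122, 112 and 135 CPM in WT and 78.1, 90.7 and 84.7 CPM in cKO. Here WT replicate 3 was the highest library, the groups did not overlap, and the log2 fold change was −0.54 ± 0.07 (adjusted p = 3.74e-05) and −0.55 without WT replicate 1. Per length it was the highest of the members described, at 322 CPM per kb in WT and 222 in cKO. Hist1h2bm (chr13:21722044-21722567), whose stem-loop and promoter are shown above, was at 28.7, 24.6 and 23.7 CPM in WT and 10.9, 14.2 and 11.9 CPM in cKO. It had the largest fall of the class (−1.05 ± 0.11, adjusted p = 3.51e-06), with every cKO library well below every WT library. Hist1h2ba, which encodes the testis H2B, was nevertheless measured at 6.79, 5.66 and 5.67 CPM in WT and 3.31, 4.03 and 4.18 CPM in cKO (−0.65 ± 0.15, adjusted p = 2.52e-03), and 61.8% of its sequence windows were unique.

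Hist1h2bp was the only member that rose. Its model (chr13:21787461-21789213) is spliced over 3 exon rows, unlike the usual histone gene, although its annotated 3′ UTR also holds the stem-loop. It had 17, 27 and 23 counts in WT and 35, 46 and 51 in cKO, or 1.00, 1.44 and 1.34 against 1.97, 2.44 and 3.28 CPM. The groups did not overlap and the log2 fold change was 1.00 ± 0.25 (adjusted p = 5.57e-03). It is adjacent to Hist1h2an, which moved in the opposite direction, and 55.9% of its windows were unique.

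The H2B members that did not pass were Hist1h2bf (−0.36), Hist1h2bc (−0.16) and Hist2h2be (0.16), and their groups overlapped. Hist1h2bc, at 24.0, 17.7 and 19.0 CPM in WT and 16.6, 19.2 and 18.5 CPM in cKO, was not sparse. Neither Hist1h2bc nor Hist2h2be has a stem-loop match in its annotated 3′ UTR. Of 9 tested members with an annotated 3′ UTR and no match, Hist1h2bc and Hist2h2be included, 7 fell (median −0.67). Of 17 whose model ends within 100 bases of the stem-loop, 14 fell (median −0.63). Of all genes tested, 21.8% fell. How a match in the annotated 3′ UTR bears on the falls was not tested. Hist3h2ba (1 to 3 counts) and Hist1h2br (1 count in all) were not tested.

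All 11 tested H3 genes fell, with a median log2 fold change of −0.67 and a range of −0.85 to −0.35. Hist1h3f (chr13:23544052-23545312), the most abundant, had the smallest fall, at 49.4, 37.9 and 45.7 CPM in WT and 31.1, 34.6 and 38.4 CPM in cKO. The groups overlapped, cKO replicate 3 being above WT replicate 2, and the log2 fold change of −0.35 ± 0.10 (adjusted p = 8.39e-03) became −0.27 without WT replicate 1 (adjusted p = 0.0504). In the other 10 genes the groups did not overlap. At the other end, Hist1h3i and Hist2h3c2 were each at 55.3% of their WT mean. Hist2h3c1 was at 0 in every library and was not tested. It overlaps Gm20634 on the same strand.

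All 12 tested H4 genes fell, with a median of −0.61 and a range of −1.14 to −0.35. Hist1h4d (chr13:23581598-23582735), the most abundant, was at 97.8, 70.1 and 71.2 CPM in WT and 50.8, 51.9 and 64.3 CPM in cKO (−0.52 ± 0.12, adjusted p = 2.59e-03). Hist2h4 (chr3:96261682-96263311) was at 65.1, 47.0 and 47.1 CPM in WT and 34.3, 40.2 and 39.8 CPM in cKO (−0.48 ± 0.11, adjusted p = 3.19e-03). Hist1h4c (chr13:23697635-23698454) was at 59.8, 38.9 and 39.9 CPM in WT and 31.9, 35.0 and 38.5 CPM in cKO (−0.39 ± 0.13, adjusted p = 2.80e-02). The groups did not overlap in any of them. Without WT replicate 1 the values were closer to 0, at −0.35, −0.31 and −0.17, and Hist1h4c then no longer passed (adjusted p = 0.131).

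The largest H4 falls were in genes with fewer reads. Hist1h4j (chr13:21735064-21735837) was at 12.1, 7.85 and 7.48 CPM in WT and 4.10, 4.03 and 4.30 CPM in cKO (−1.14 ± 0.18, adjusted p = 1.86e-04), the largest fall of any member. Hist1h4k (chr13:21750194-21750505) was at 16.9, 11.7 and 12.5 CPM in WT and 5.50, 6.78 and 7.65 CPM in cKO (−1.05 ± 0.15). Hist4h4 (chr6:136801553-136804415), a single gene on chromosome 6, was at 42.5, 30.0 and 32.9 CPM in WT and 15.4, 18.7 and 17.9 CPM in cKO (−1.02 ± 0.12, adjusted p = 1.34e-05). None of their libraries overlapped between groups, and without WT replicate 1 they were at −0.89, −0.87 and −0.86 and still passed. Hist1h4n (chr13:21831767-21832196) was at 6.90, 3.63 and 4.74 CPM in WT and 2.36, 3.02 and 2.57 CPM in cKO (−0.93 ± 0.22, adjusted p = 4.29e-03), again without overlap, and at −0.65 without WT replicate 1 (adjusted p = 0.0228). Hist1h4m, of which 89.8% of the windows occur in Hist1h4n, had 0 or 1 count in WT and 1 to 3 in cKO and was not tested.

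**Figure D3:**
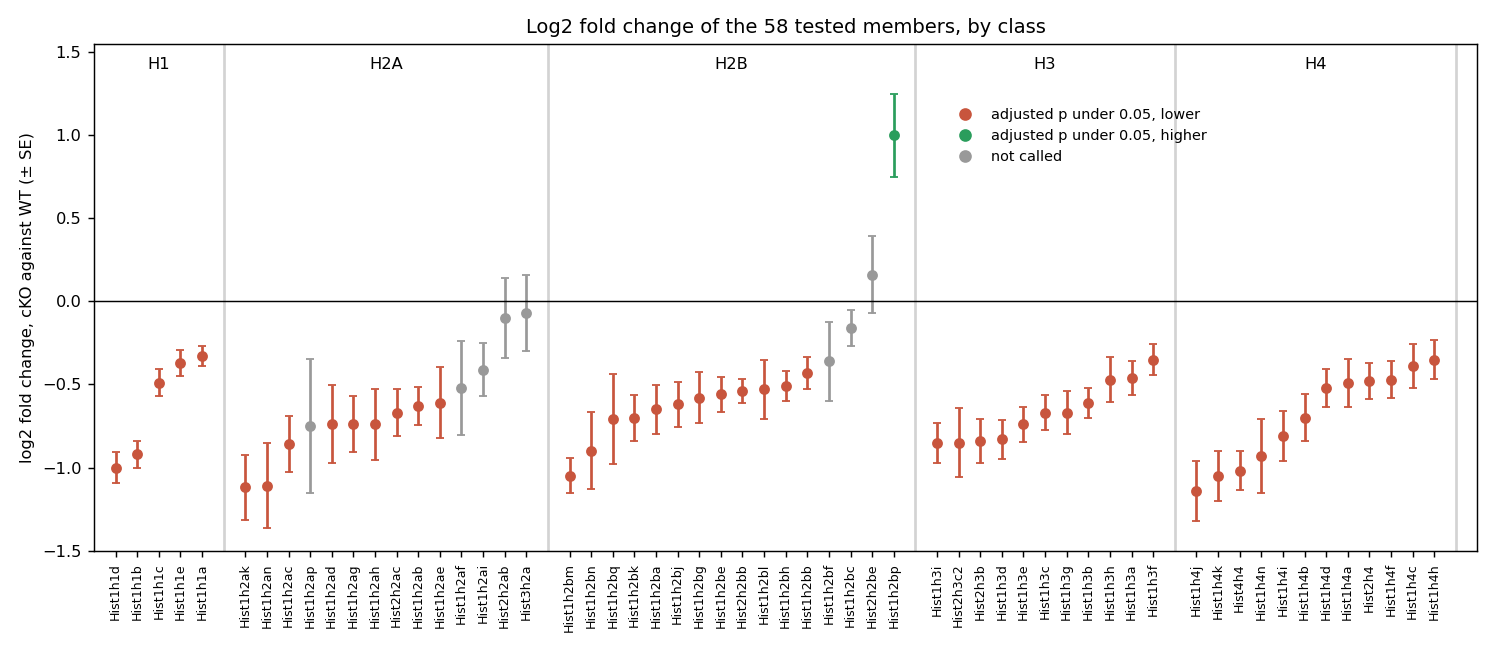
Log2 fold change of cKO against WT with its SE (vertical axis) for the 58 tested members, ordered by value within each class and colored by the edgeR call. All but 2 values are below 0, and Hist1h2bp alone is called higher.

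Members were spread over 4 chromosomes, and the size of the fall differed along chromosome 13. The chromosome 13 members fall into 3 stretches separated by wide gaps, which were cut at 22 and 23 Mb after the values were known. In the first stretch 12 of 15 tested members fell and 1 rose (median −0.90), in the second all 5 fell (−0.74), and in the third 26 of 29 fell (−0.52). Without WT replicate 1 the 3 stretches had 9 of 15, 4 of 5 and 20 of 29 lower, with medians of −0.68, −0.51 and −0.39. Over all genes tested, 21.8% were lower with all libraries and 17.9% without WT replicate 1. The excess of WT replicate 1 was itself larger in the first stretch than in the third (median ratios 1.46 and 1.30). The first stretch holds Hist1h4j, Hist1h2ak, Hist1h2an, Hist1h2bm, Hist1h4k, Hist1h4n and Hist1h1b. Its members were also less unique in sequence, with a median of 13.9% unique windows against 59.9% in the third stretch, and the difference between stretches was not tested. On chromosome 3, 5 of 7 tested members fell (median −0.54).

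Near-identical copies limit what each row measured, since reads that map to several places were left out. The share of 50-base windows found at 1 place among the annotated transcripts was 91.5% to 100% in H1 genes, with medians of 27.0% in H2A, 56.0% in H2B, 42.8% in H3 and 60.5% in H4. Members with less unique sequence tended to have fewer counts (Spearman's rho 0.466 between unique share and mean CPM across 58 members that share the same 6 libraries) and somewhat larger falls (rho 0.295 with the log2 fold change). Among the 11 tested members with at least 90% unique windows 9 fell and none rose, with a median of −0.49, and their summed CPM in cKO was 67.2% of WT. The 2 that did not pass were Hist3h2a and Hist2h2be. Among the 25 tested members under 50%, 21 fell, with a median of −0.74. Without WT replicate 1, 9 of the 11 and 16 of the 25 were lower, with medians of −0.39 and −0.51. Over all genes tested, 21.8% were lower with all libraries and 17.9% without WT replicate 1. The lower level was thus also measured where reads could be placed uniquely, chiefly in H1 genes, Hist2h2bb, Hist1h2be, Hist2h4 and Hist4h4. It was not so measured in H3, where the unique share was at most 75.2%. In H2A the only tested member with at least 90% was Hist3h2a (−0.07). The unique share also counts annotated bases past the stem-loop, 2445 of them in Hist4h4, 1861 in Hist1h2be and 1257 in Hist2h4. Among H1 genes there were 4884 in Hist1h1d, 1153 in Hist1h1e and 840 in Hist1h1c. Hist2h2bb overlaps Gm42743 on the same strand, where shared reads were not counted.

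**Figure D4:**
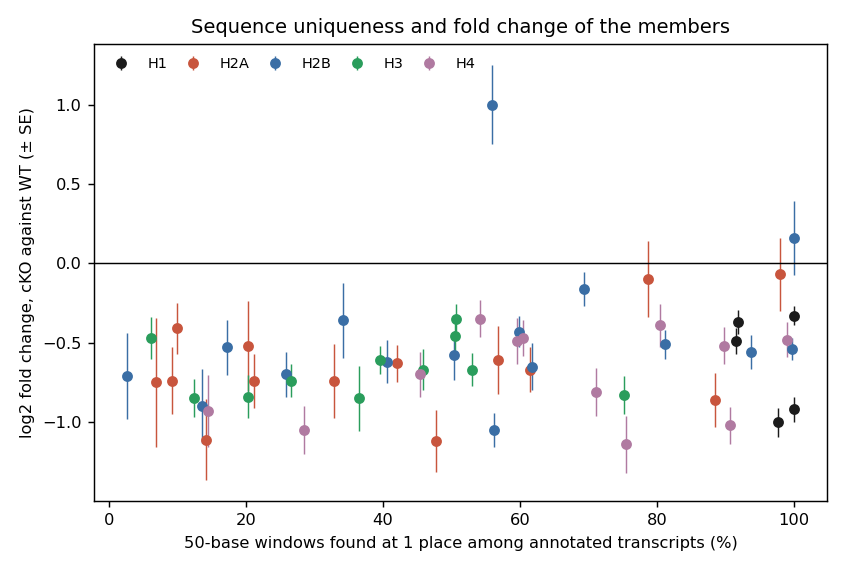
Log2 fold change of cKO against WT with its SE (vertical axis) against the percentage of 50-base windows found at 1 place among the annotated transcripts (horizontal axis), for the 58 tested members colored by class. Values below 0 are found over the whole range of uniqueness.

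Among genes that act with the histone genes, those of S phase were lower, but by less. Of the 42 S phase genes 28 fell and none rose (median −0.22), that is 66.7% lower against 21.8% of all genes tested. Without WT replicate 1, 26 fell, where 17.9% of all genes tested were lower. The largest falls were Clspn (−0.52 ± 0.07), a checkpoint mediator at the fork, Orc1 (−0.47 ± 0.09), of the origin recognition complex, E2f1 (−0.43 ± 0.08), a transcription factor of the G1/S transition, Prim1 (−0.43 ± 0.07), a primase subunit, and Tk1 (−0.42 ± 0.07), thymidine kinase. Summed S phase genes were at 3690 to 3730 CPM in WT and 3110 to 3390 CPM in cKO. Counts of the 67 members over those of the 42 S phase genes were 0.562, 0.448 and 0.473 in WT and 0.361, 0.384 and 0.400 in cKO. All cKO libraries were below all WT libraries, with or without WT replicate 1 (two-sided exact permutation test over all 6 libraries, p = 0.1, the smallest this design allows).

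**Figure D5:**
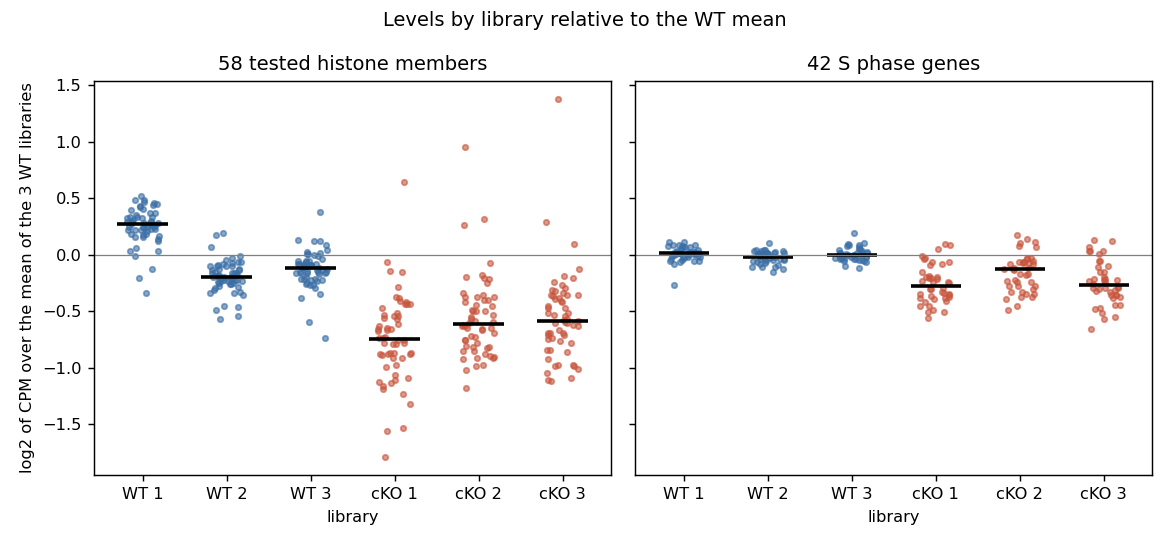
Log2 of CPM over the mean of the 3 WT libraries (vertical axis) in each library, for the 58 tested histone members (left) and the 42 S phase genes (right), with 1 point a gene and a bar at the median. The histone medians are 0.27, −0.19 and −0.11 in WT and −0.74, −0.61 and −0.58 in cKO, whereas the S phase medians are near 0 in WT and −0.27, −0.13 and −0.27 in cKO.

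Of 18 genes for the transcription, 3′ end processing and decay of histone mRNA, 9 fell and none rose, with a median of −0.15. The share called, 9 of 18, was near the 43.7% of all genes tested, and the share lower was above 21.8%. Without WT replicate 1, 7 were lower, where 17.9% of all genes tested were lower. Upf1, the decay helicase, was at 159, 141 and 139 CPM in WT and 108, 111 and 103 CPM in cKO (−0.45 ± 0.06, adjusted p = 2.90e-05). Ccne2 (cyclin E2, −0.31 ± 0.07), Cdk2 (−0.29 ± 0.06), Npat (−0.28 ± 0.06) and Casp8ap2 (−0.20 ± 0.06), the last a partner of NPAT at histone loci, also fell. Slbp, which binds the stem-loop, was at 59.1, 56.3 and 53.1 CPM in WT and 48.6, 50.7 and 52.7 CPM in cKO (−0.15 ± 0.06, adjusted p = 0.0551). The libraries of Slbp did not overlap, yet it did not pass the test.

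Of 19 histone chaperones and assembly factors, 8 fell and 1 rose (median −0.13), and the share called, 47.4%, was near that of all genes tested (43.7%). The share lower, 42.1%, was above the 21.8% of all genes tested. Hjurp, the chaperone of the centromeric histone CENP-A, rose from 115, 109 and 114 CPM in WT to 205, 207 and 210 CPM in cKO (0.88 ± 0.04, adjusted p = 5.54e-09). Its client Cenpa moved the other way, from 18.6, 17.4 and 21.6 CPM to 13.6, 11.4 and 12.5 CPM (−0.62 ± 0.10, adjusted p = 2.59e-04). Supt16, a subunit of FACT (−0.37 ± 0.05), Chaf1a, of CAF-1 (−0.33 ± 0.08), Asf1b (−0.32 ± 0.07) and Asf1a (−0.29 ± 0.09), chaperones of H3–H4, fell.

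Of 11 replication-independent histone genes, most of which make polyadenylated mRNAs, 5 fell and 1 rose, with a median of −0.16. The share called, 54.5%, lay not far above the 43.7% of all genes tested, and the share lower, 45.5%, was above 21.8%. H2afx, which makes mRNAs of both kinds and carries a stem-loop like the members, fell by 0.48 ± 0.09 on the log2 scale (adjusted p = 9.71e-04), while H2afz (−0.29 ± 0.06) and H2afy (−0.22 ± 0.05) fell less. H2afv rose (0.63 ± 0.09, adjusted p = 7.37e-05). RNAs without a poly(A) tail, picked after their values were seen, were higher in cKO, namely Rn7sk (0.68 ± 0.06), Rn7s2 (0.44 ± 0.05) and Rpph1 (0.27 ± 0.10, adjusted p = 0.0496, groups overlapping), while Malat1, a nuclear RNA that also lacks a poly(A) tail, did not pass (0.20 ± 0.09, adjusted p = 0.0765, groups overlapping). How the capture of RNAs without a poly(A) tail bears on the members' values was not tested.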

How the data were processed

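The authors deposited 1 table of raw counts per gene, made per the file headers with featureCounts 1.6.4 on exons in reverse-stranded mode, so that multi-mapped reads and reads shared by genes on 1 strand were not counted. Per the labels, libraries were made from total RNA with random and poly(T) primers, strand selection and depletion of targeted transcripts; the study's methods describe bead-purified mRNA and another kit, for uterine stromal cells. The submitters' processing notes name cutadapt, HISAT2 and GRCm38.p5, and the file header names a GENCODE annotation. The deposited counts were not normalized; the exon length column was used only for CPM per kb. Gene symbols came from GENCODE M21 by gene ID, for 54165 of 54232 rows (99.9%).

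Counts of all genes were fitted together with edgeR 4.0.16 (R 4.3.3; TMM, filterByExpr by group, quasi-likelihood F-test on genotype, two-sided, Benjamini-Hochberg adjustment over 15376 genes, threshold 0.05), and only the members were then read. The SE is the absolute log2 fold change over the square root of F. DESeq2 1.42.0, limma-voom (limma 3.58.1), other scalings, filters and each replicate left out were alternatives. On simulated counts for the comparison of cKO with WT over 15178 genes, with genes changed by 1 log2 unit, 181 of 198 were recovered (91.4%) with 5 false calls. Only those 198 genes were changed in that check, whereas 43.7% of all genes tested were called here. Recovery at smaller sizes, such as the members' median log2 fold change of −0.63, was not tested. The biological coefficient of variation was 5.32%. Pairs of replicates differed by more than counting noise (mean chi-square per gene 1.31 to 1.60). A legend in the study's supplement calls the replicates biological, but no source says that each came from a separate animal, and p-values measure the spread between these libraries. The floor of 3 counts covers counting error only, whereas the SE comes from the same fit as the p-values.

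Windows of 50 bases were compared among the annotated transcripts, since no genome sequence was used here. Members and lists were chosen with earlier results of these data known. Values by library were given for the most abundant member of each class, the 10 most abundant members, up to 8 called members with the largest falls and rises, and the testis members; members at 0 in all libraries were named, as were Pbrm1, Slbp, Npat and up to 5 called genes of each related list. Other genes and members were named after their values were seen.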

Additional observations from a re-analysis of the deposited data

How the results depend on the processing

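The count of members with an adjusted p under 0.05, 50 of 58, was 46 (DESeq2) to 51 under the other tools, scalings and filters, and 40 to 50 when 1 library was left out; 40 was without WT replicate 1 and 43 without cKO replicate 1. It was 41 at an adjusted p under 0.01, and 7 at an adjusted p under 0.05 with an absolute log2 fold change over 1, a rule under which the count over all genes fell from 6723 to 998. The count over all genes was 5329 (DESeq2) to 6925 under other tools, scalings and filters and 5532 to 7054 when 1 library was left out. In each setting 1 member, Hist1h2bp, was called higher, except with the fold limit and among the members with unique sequence. Restricting the members to those with at least 90% unique windows, an alternative added after seeing the data, left 9 called of 11 and moved the summed CPM of H2A in cKO from 60.6% to 94.4% of WT, where nearly all the remaining counts are those of Hist3h2a. The planned version with windows from the genome was not run because no genome sequence was at hand. Leaving out 1 library gave summed CPM in cKO of 63.8% to 72.0% of WT for all members. Over all 58 tested members, 12 changed their call in at least 1 setting: the 10 lost without WT replicate 1, and Hist1h2ai and Hist1h2ap, which gained one. Of the 42 tested genes that the rule for names picked, in and outside the members, 5 changed their call in at least 1 of 13 settings and none changed direction: Hist1h3f, Hist1h4c (also −0.40 with an adjusted p of 0.175 by DESeq2), Asf1a and Casp8ap2 lost it, and Slbp gained it without WT replicate 3 (adjusted p = 0.0362) or cKO replicate 3 (0.0434). Libraries with the same replicate number did not deviate together (correlations of same-numbered deviations −0.0243, 0.0353 and 0.0928), and a fit with the replicate block called 51 members, the additional one being Hist1h2ai, and 6908 genes in all. Members with few counts, such as Hist2h2be and Hist3h2a, could not show a small change at this depth.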

Other observations

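Of the rows with a histone symbol 3 are annotated as pseudogenes and were left out of the members. Of these, Hist1h2al (chr13:51202727-51203065), an H2A-like processed pseudogene outside the histone clusters, had 67, 57 and 48 counts in WT and 0, 0 and 1 in cKO. It was at 3.95, 3.04 and 2.81 CPM in WT, and the groups were far apart (edgeR adjusted p = 2.56e-07). Hist1h2aj had at most 2 counts in a library and Hist3h2bb-ps at most 7. Mki67, a marker of cycling cells that is in none of the lists and was picked after its values were seen, was at 268, 251 and 247 CPM in WT and 149, 153 and 138 CPM in cKO (log2 fold change −0.80 ± 0.05, adjusted p = 6.94e-08), and WT replicate 1 was 1.07 times the mean of the other WT libraries. Pgr, whose locus drives Cre, was at 170 to 177 CPM in WT and 159 to 183 CPM in cKO and did not pass the test (adjusted p = 0.508).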
